A study of Mus musculus with 9 samples.

Results

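Imprinted genes are transcribed mainly from the copy inherited from the father or from the copy inherited from the mother. The regions described here are the stretches of open chromatin at 33 imprinted genes of the mouse, in 18 chromosomal domains. They leave out the domain of Dlk1. A region was counted as a member if it lay in one of the 33 genes or within 20 kb of it and if no other protein-coding gene was nearer, with ties kept. This gave 331 of the 157497 regions in the count table, of which 267 lay inside a member gene and 64 beside one. All 331 passed the filter on low counts and were tested.

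The libraries came from mouse embryonic stem cells and were made by ATAC-seq, in which a transposase cuts accessible DNA and the cut fragments are sequenced. There were 3 groups of 3 libraries. The NanogKO cells (line N{delta}, code 44C6) lack Nanog, a homeodomain factor of the pluripotency network. The NanogKO:Esrrb cells (code 44J) and the NanogKO:Esrrb:Nanog cells (code 44JN) have line N{delta}:cE:iN as their source, and their names add Esrrb, an orphan nuclear receptor of the same network, or Esrrb together with Nanog. All 3 groups therefore share the Nanog deletion, and the labels do not say how Nanog was supplied in the third group. Every group grew in 10% serum with 1000 U/ml of the cytokine LIF, received no treatment, and was sorted for PECAM+ PDGFRA- cells, a gate that keeps stem cells and drops primitive endoderm. Each group carries a single code, and nothing in the labels says that its libraries came from separate cultures or clones. The p-values therefore measure the spread between these libraries only. A Nanog-positive wild type and a group with Nanog alone were not analysed here.

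At most imprinted genes, imprinting rests on DNA methylation that is placed on 1 parental copy of a control region in the egg or sperm. After fertilisation that mark is kept by ZFP57, a zinc finger protein that binds the methylated hexamer TGCCGC, together with TRIM28. In most imprinted domains the mark comes from the mother and lies over the promoter of a gene or noncoding transcript that the paternal copy expresses. Cultured stem cells are known for losing or gaining such marks. The reads here were not split by parental copy, so a value is the sum over both, and fewer cells with an open region cannot be told apart from less opening per cell.

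The total count per library ran from 35545030 to 58520948, and the median count per region ran from 96 to 175. Replicate 3 of NanogKO:Esrrb:Nanog stood apart from its group. Where leaving it out starts or ends a call on a value printed here, the value without it is given too. At the 9 stem cell marker genes, the most accessible region had a median over genes of 20.8 CPM (counts scaled to library size) in NanogKO, 27.1 in NanogKO:Esrrb and 29.8 in NanogKO:Esrrb:Nanog. All marker regions of primitive endoderm, trophoblast and fibroblasts were also open at some level. The most accessible region of each of those genes had at least 6.57 CPM in every group, so accessibility at these genes alone names no cell type. Of 83 regions at stem cell markers, 42 rose and 4 fell in NanogKO:Esrrb against NanogKO, and 51 rose and 5 fell in NanogKO:Esrrb:Nanog. The corresponding counts were 4 and 10, then 6 and 16, of 50 regions for primitive endoderm, 3 and 7, then 7 and 9, of 53 for trophoblast, and 5 and 6, then 7 and 10, of 35 for fibroblasts. Beside these, 20% of all tested regions rose and 17.0% fell in NanogKO:Esrrb, and 24.9% rose and 24.4% fell in NanogKO:Esrrb:Nanog. These marker regions moved in the same comparisons as the imprinted ones, and their part in the results was not tested.

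The DNA just before the start of 7 transcripts is shown because the results turn on these promoters. In 5 of the windows the accessible region at the promoter was lower in both comparisons with NanogKO, and in the last 2, of Slc38a4 and Ube3a, it passed the test in neither. Each is the 250 bases before a RefSeq transcript start, 5′ to 3′ on the strand of the gene (GRCm38.p6, the same build as mm10). Capitals mark TGCCGC or its reverse complement.
Mest, upstream start (chr6:30733256-30733505, plus strand): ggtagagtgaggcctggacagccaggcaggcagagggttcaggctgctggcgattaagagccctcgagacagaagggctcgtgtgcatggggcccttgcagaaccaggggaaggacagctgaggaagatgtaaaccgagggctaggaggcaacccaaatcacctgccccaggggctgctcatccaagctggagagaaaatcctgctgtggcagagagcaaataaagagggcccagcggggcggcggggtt
Mest, downstream start (chr6:30737800-30738049, plus strand): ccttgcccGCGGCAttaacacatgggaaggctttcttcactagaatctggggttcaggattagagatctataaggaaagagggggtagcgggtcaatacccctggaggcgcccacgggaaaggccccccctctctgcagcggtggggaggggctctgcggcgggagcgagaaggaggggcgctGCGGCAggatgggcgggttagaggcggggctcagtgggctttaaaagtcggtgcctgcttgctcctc
Peg3 (chr7:6730420-6730669, minus strand): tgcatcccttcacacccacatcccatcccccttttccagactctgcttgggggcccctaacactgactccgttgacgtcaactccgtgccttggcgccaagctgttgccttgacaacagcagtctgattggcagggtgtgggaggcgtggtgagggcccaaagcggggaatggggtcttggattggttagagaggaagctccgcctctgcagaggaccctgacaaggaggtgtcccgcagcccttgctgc
Plagl1 (chr10:13090582-13090831, plus strand): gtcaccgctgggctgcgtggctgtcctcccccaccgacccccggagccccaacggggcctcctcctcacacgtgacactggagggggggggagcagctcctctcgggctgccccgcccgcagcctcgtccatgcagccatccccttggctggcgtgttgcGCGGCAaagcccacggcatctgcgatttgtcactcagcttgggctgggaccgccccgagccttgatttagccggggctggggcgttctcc
Rasgrf1 (chr9:89909525-89909774, plus strand): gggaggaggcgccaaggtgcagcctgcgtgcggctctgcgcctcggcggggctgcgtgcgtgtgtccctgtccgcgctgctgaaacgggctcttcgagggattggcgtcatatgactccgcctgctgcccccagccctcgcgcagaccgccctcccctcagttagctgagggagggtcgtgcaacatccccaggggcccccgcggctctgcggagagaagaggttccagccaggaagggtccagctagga
Slc38a4 (chr15:97055957-97056206, minus strand): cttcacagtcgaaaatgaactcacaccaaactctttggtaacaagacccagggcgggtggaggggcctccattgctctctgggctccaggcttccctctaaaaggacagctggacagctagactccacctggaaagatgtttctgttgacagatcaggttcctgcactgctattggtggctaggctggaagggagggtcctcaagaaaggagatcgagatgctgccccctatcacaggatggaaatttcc
Ube3a (chr7:59228500-59228749, plus strand): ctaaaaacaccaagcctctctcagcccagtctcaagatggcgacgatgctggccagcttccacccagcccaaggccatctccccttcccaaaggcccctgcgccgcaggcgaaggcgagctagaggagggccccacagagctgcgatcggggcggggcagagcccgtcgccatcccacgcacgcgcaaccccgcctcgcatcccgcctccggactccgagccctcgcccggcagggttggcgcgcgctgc

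The table held 43 such windows for 26 of the member genes. TGCCGC occurred on either strand in 4 of them (9.3%), 2 nearly identical windows of the downstream Mest start and 1 each of Plagl1 and Zim1, against 8.68% of all 32851 windows of this length. The hexamer was thus about as frequent at these promoters as at others. The ESRRB motif TNAAGGTCA was in 0 of the 43 windows, against 1.14% of all windows. The core motif of CTCF was in 1 window (2.33%), that of H13, against 2.07%. The YY1 motif GCCATNTT was in 3 (6.98%), of Mkrn3, Slc38a4 and Ube3a, against 3.91%. The Slc38a4 window with it (chr15:97020360-97020609) belongs to another start than the printed window, which holds no copy. Both strands were searched for each. The windows of members had a median of 11 CpG dinucleotides and 60% G+C, against 6 and 52.4% over all windows.

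Across all imprinted regions, lower calls outnumbered higher ones in each of the 3 comparisons, but leaving out a single locus turned this over in some. In NanogKO:Esrrb against NanogKO, 63 of the 331 regions (19%) rose and 76 (23.0%) fell, where 20% and 17.0% of all 157439 tested regions did so. In NanogKO:Esrrb:Nanog against NanogKO, 69 (20.8%) rose and 111 (33.5%) fell, beside 24.9% and 24.4% of all regions. The median log2 fold change of the members was -0.04 in the former and -0.10 in the latter, against -0.01 over all regions in each. Without the Peg3 domain, 62 of 301 regions (20.6%) rose and 58 (19.3%) fell with Esrrb, with a median of 0.01, so that balance turned over. Without Ppp1r9a it did not, as 41 of 279 rose and 71 fell. With both factors lower calls still outnumbered higher ones without either locus, with 69 higher and 86 lower without the Peg3 domain. The 2 comparisons share the NanogKO libraries, so they are not independent of each other. A region was called at an adjusted p under 0.05 in edgeR's quasi-likelihood test, with Benjamini-Hochberg adjustment over all tested regions, and whether the members differ from other regions was not tested. The regions named below include, for each gene, the one with the smallest p for any difference among the 3 groups. Clear separation of the groups at such regions follows in part from that choice.

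Beyond 2-fold, 29 members rose and 28 fell with Esrrb, beside 8.37% and 6.01% of all regions, and 28 rose and 43 fell with both factors, beside 11.3% and 11%.

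Between NanogKO:Esrrb:Nanog and NanogKO:Esrrb, 29 member regions (8.76%) were higher and 41 (12.4%) lower, beside 12.6% and 12.0% of all regions, with a median log2 fold change of -0.09 against -0.01. This count rested on single libraries. Without replicate 3 of NanogKO:Esrrb:Nanog it was 50 higher and 60 lower, without replicate 3 of NanogKO:Esrrb 16 and 27, without replicate 1 of NanogKO:Esrrb 23 and 27, and without replicates 1 or 2 of NanogKO:Esrrb:Nanog 19 and 29 or 18 and 31. Scaling by library totals alone gave 17 higher and 60 lower, as it moved the median of all regions to -0.11. Without the regions of Ppp1r9a there were 29 higher and 24 lower of 279. Without those of the Peg3 domain there were 28 higher and 34 lower of 301. Beyond 2-fold, 3 were higher and 10 lower, beside 1.89% and 3.63%. In all, 197 members (59.5%) differed somewhere among the 3 groups, against 56.5% of all regions.

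By parental origin, lower calls outnumbered higher ones at the paternally expressed genes in both comparisons with NanogKO, and at the maternally expressed genes in the second only. The difference between these lists was not tested. They follow the parental origin that each gene is known for, which for some, such as Ppp1r9a, holds in certain tissues only. Expression from either copy was not measured in these cells. Of 100 regions at paternally expressed genes, 16 rose and 37 fell in NanogKO:Esrrb, and 17 rose and 54 fell in NanogKO:Esrrb:Nanog, each against NanogKO, where 20% and 17.0%, then 24.9% and 24.4%, of all regions did so. Of the 187 regions of maternally expressed genes, 40 rose and 31 fell, then 42 rose and 47 fell. The medians were -0.25 and -0.43 on the log2 scale for the paternally expressed genes and 0.02 and -0.01 for the maternally expressed genes. Single loci supplied many of these regions, the Peg3 domain on the paternal side and Ppp1r9a on the maternal side. Without the Peg3 domain, 15 of 74 paternally expressed regions rose and 23 fell in NanogKO:Esrrb, and 17 rose and 32 fell in NanogKO:Esrrb:Nanog. Without Ppp1r9a, 18 of 135 maternally expressed regions rose and 26 fell, then 26 rose and 37 fell, so the balance with Esrrb turned over. Their medians were then -0.05 and -0.04 on the log2 scale. The remaining 44 regions belong to Grb10, Gnas and Inpp5f, whose transcripts differ in parental origin, with 7 higher and 8 lower, then 10 and 10. The 8 became 5 without replicate 2 of NanogKO and 4 without replicate 3 of NanogKO:Esrrb. The shares of all regions above are also the background of the counts by gene and domain that follow. The plot of fold changes by domain shows how unevenly the changes were spread.

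**Figure D1:**
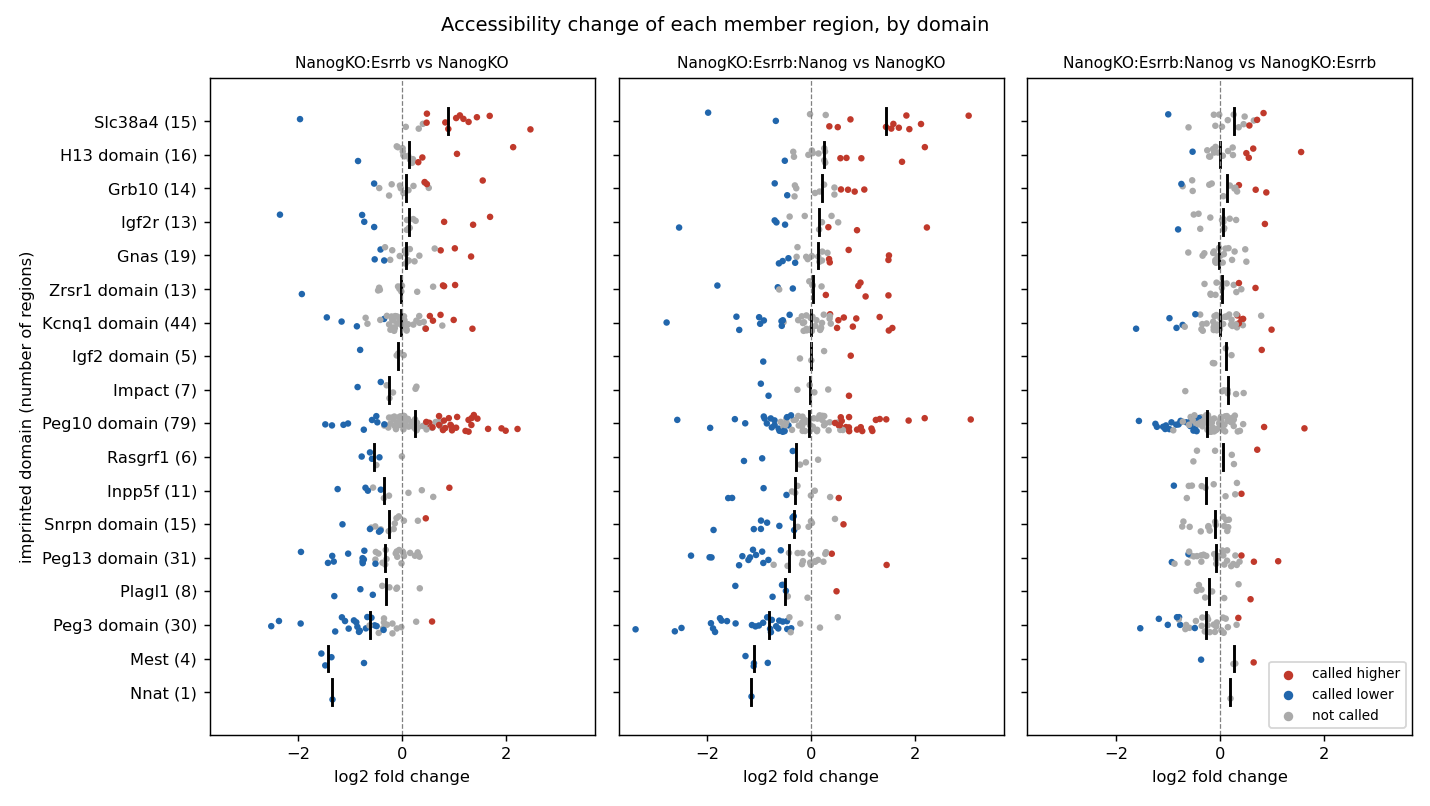
The log2 fold change of each of the 331 member regions (points) is plotted by imprinted domain for the 3 comparisons, with called regions in colour and the domain median as a black bar. Slc38a4 lies furthest to the right in the comparisons with NanogKO, and Peg3, Mest and Nnat lie furthest to the left.

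At the promoters, the changes against NanogKO ran mostly downward with Esrrb. In NanogKO:Esrrb, 10 of the 30 member regions over a promoter window fell and 1 rose, beside 13.8% lower and 7.0% higher among all 13920 tested promoter regions. Of the 10, those at the downstream start of Mest and at Peg3, Plagl1, Rasgrf1, Magel2, Ndn and Airn belong to transcripts known for paternal expression. The others were at the upstream start of Mest, at the maternally expressed Zim1 and at Gm33663, a transcript beside Cdkn1c. The exception that rose, over the start of 1700030C14Rik near H13, is named after its values were seen. In NanogKO:Esrrb:Nanog, 11 of the 30 fell and 5 rose, beside 12.4% and 20.7% of all promoter regions. The 11 were those regions other than Zim1, plus Mkrn3 and Zrsr1, and those that rose were at Gnas, Igf2r, Inpp5f, Ascl2 and 1700030C14Rik. Without replicate 2 of NanogKO the number that rose was 3. Between NanogKO:Esrrb:Nanog and NanogKO:Esrrb, 4 were higher and 1, the upstream start of Mest, lower, beside 17.8% and 4.21%. The 4 became 0 without replicate 2 of NanogKO:Esrrb or of NanogKO:Esrrb:Nanog, 1 without replicate 3 of the former or replicate 1 of the latter, and 11 without replicate 3 of NanogKO:Esrrb:Nanog.

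Mest encodes a protein of the hydrolase fold and carries its maternal methylation mark over the downstream start, which drives the paternal transcript. All 4 regions of the gene fell in both comparisons with NanogKO. The upstream start (chr6:30732562-30733483) had 14.1, 13.7 and 14.5 CPM in the NanogKO libraries, 8.13, 8.07 and 9.15 in NanogKO:Esrrb, then 7.26, 6.04 and 6.38 in NanogKO:Esrrb:Nanog. The 3 groups did not overlap there. Against NanogKO this was a log2 fold change of -0.74 ± 0.13 (SE; adjusted p = 3.8e-05) with Esrrb and -1.10 ± 0.13 (adjusted p = 6.9e-08) with Esrrb and Nanog. The further step between the latter groups, -0.36 (adjusted p = 0.041), missed the threshold without replicate 1 or 3 of NanogKO:Esrrb, without replicate 2 or 3 of NanogKO:Esrrb:Nanog, and without any 1 NanogKO library, with adjusted p from 0.050 to 0.16. It also missed with RLE size factors (0.051) and with those groups alone (0.076).

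The region over the downstream start of Mest (chr6:30738006-30738484) overlaps only the end of the printed window, past both hexamers marked there. It had 8.27, 8.91 and 9.02 CPM in NanogKO. It had 3.82, 3.47 and 2.92 CPM in NanogKO:Esrrb, then 5.25, 4.28 and 2.73 in NanogKO:Esrrb:Nanog. All NanogKO libraries stood above the other 6, among which the groups overlapped through replicate 3 of NanogKO:Esrrb:Nanog. Between the groups with Esrrb the log2 difference was 0.26 (adjusted p = 0.32), and without that library it was called at 0.50 (adjusted p = 0.024). Against NanogKO, the fold change was -1.36 ± 0.18 on the log2 scale with Esrrb (adjusted p = 1.2e-06) and -1.10 ± 0.18 with Esrrb and Nanog (adjusted p = 1.3e-05). The other 2 regions of Mest, at chr6:30736843-30737217 and chr6:30739251-30739388, changed by -1.56 and -1.48 with Esrrb and by -1.26 and -0.83 with both factors. Of 216 non-member regions within 1 Mb, 45 rose and 28 fell in NanogKO:Esrrb, and 55 rose and 41 fell in NanogKO:Esrrb:Nanog.

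Nnat, or neuronatin, encodes a small membrane proteolipid and is transcribed from the paternal copy inside an intron of Blcap. Its single region (chr2:157561168-157561687) had 8.02, 6.65 and 7.10 CPM in NanogKO, 2.98, 2.61 and 2.98 in NanogKO:Esrrb, then 3.55, 3.40 and 2.87 in NanogKO:Esrrb:Nanog. The NanogKO libraries were all more than 6 CPM and the others all under 4. Its fold change on the log2 scale was -1.34 ± 0.16 (adjusted p = 2.2e-07) and -1.15 ± 0.16 (adjusted p = 1.2e-06). This region is as near to Blcap as to Nnat.

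Peg3 encodes a zinc finger protein and shares its promoter with Usp29, a deubiquitinase gene that runs the opposite way. The shared start (chr7:6730141-6730615) had 21.6, 19.9 and 21.3 CPM in NanogKO, 12.8, 10.5 and 12.4 in NanogKO:Esrrb, then 16.6, 14.99 and 13.9 in NanogKO:Esrrb:Nanog. The groups were separate, with NanogKO highest and NanogKO:Esrrb lowest. Against NanogKO the log2 fold change was -0.82 ± 0.12 (adjusted p = 4.5e-06) with Esrrb and -0.46 ± 0.12 (adjusted p = 0.0020) with both factors. The partial return between these groups, 0.35 ± 0.12 (adjusted p = 0.033), was lost with any 1 of replicates 2 and 3 of NanogKO:Esrrb or 1 and 2 of NanogKO:Esrrb:Nanog left out (adjusted p from 0.061 to 0.15), with library totals (0.10) and with those groups alone (0.068).

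The most accessible region of Peg3 (chr7:6727232-6728980), near the promoter, had 106, 81.1 and 86.1 CPM in NanogKO, 74.2, 56.0 and 63.6 in NanogKO:Esrrb, then 85.7, 59.3 and 64.2 in NanogKO:Esrrb:Nanog. It fell by 0.49 and by 0.38 on the log2 scale (adjusted p = 0.0052 and 0.021). Both calls were lost without replicate 1 of NanogKO (adjusted p = 0.057 and 0.16), the library with the highest value, and the second also without replicate 2 (0.15) or replicate 3 (0.054) of NanogKO:Esrrb:Nanog.

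Plagl1 encodes a zinc finger factor that restrains proliferation, and its promoter is shared with the noncoding Hymai. Its promoter region (chr10:13090436-13091286) had 7.86 ± 0.49 CPM (SD, n = 3) in NanogKO, 5.31 ± 0.43 in NanogKO:Esrrb and 5.60 ± 0.57 in NanogKO:Esrrb:Nanog. Against NanogKO it changed by -0.57 (adjusted p = 0.0024) and -0.49 (adjusted p = 0.0063) on the log2 scale. A second region inside the gene (chr10:13116982-13117578) fell further, by 1.31 and by 1.46. Of the 8 regions of Plagl1, 3 fell and 0 rose with Esrrb, and 4 fell and 1 rose with both factors.

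Rasgrf1 encodes an exchange factor for Ras and is methylated on the paternal copy, at a distance from its promoter. The promoter region (chr9:89909541-89910475) had 20.6, 19.9 and 19.6 CPM in NanogKO, 13.9, 11.2 and 13.9 in NanogKO:Esrrb, then 15.7, 16.8 and 14.6 in NanogKO:Esrrb:Nanog. All 3 groups were separate there. The fall was -0.62 ± 0.12 (adjusted p = 0.00015) and -0.35 ± 0.12 (adjusted p = 0.015) on the log2 scale. Between the groups with Esrrb the difference was 0.27 (adjusted p = 0.099), called without replicate 3 of NanogKO:Esrrb:Nanog at 0.32 (0.044). Of its 6 regions, 4 fell with Esrrb, or 2 without replicate 2 of NanogKO:Esrrb, 3 fell with both factors, and 0 rose.

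Igf2r encodes the receptor that clears the growth factor IGF2 and is silenced on the paternal copy by the antisense noncoding RNA Airn, which starts in one of its introns. The region over the Airn start (chr17:12741197-12741804) fell from 11.8 ± 1.5 CPM (SD, n = 3) to 8.09 ± 0.66 and 8.32 ± 0.27, with log2 fold changes of -0.54 (adjusted p = 0.0018) and -0.50 (adjusted p = 0.0025). The Igf2r promoter itself (chr17:12769374-12770137) had 12.1, 11.7 and 13.5 CPM in NanogKO and 16.6, 15.6 and 14.7 in NanogKO:Esrrb:Nanog. That difference of 0.33 on the log2 scale (adjusted p = 0.037) missed the threshold without replicate 1 or 2 of NanogKO or replicate 1 or 2 of NanogKO:Esrrb:Nanog (0.069 to 0.13), and under scaling by library totals (0.13). A weak intronic region between them (chr17:12749580-12749833) dropped from 1.29 ± 0.30 CPM to 0.25 ± 0.06 and 0.21 ± 0.06, or by 2.35 and 2.54 on the log2 scale.

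Grb10 encodes an adaptor that dampens insulin signalling, and its imprint lies over an internal start rather than the main promoter. Its most accessible region, at chr11:12025567-12026968, had 39.0, 36.8 and 36.0 CPM in NanogKO, 26.97, 24.8 and 25.1 in NanogKO:Esrrb, then 24.96, 21.8 and 22.1 in NanogKO:Esrrb:Nanog. The NanogKO libraries lay above the rest, for log2 fold changes of -0.54 ± 0.11 (adjusted p = 0.00025) and -0.70 ± 0.11 (adjusted p = 6.0e-06). The main promoter (chr11:12037093-12038098) had 15.5 ± 1.2 CPM, 13.5 ± 2.1 and 16.3 ± 2.4 and passed the test in neither comparison. Between the groups with Esrrb it differed by 0.28 (adjusted p = 0.13), and by 0.39 (adjusted p = 0.028) without replicate 3 of NanogKO:Esrrb:Nanog. Of the 14 regions of Grb10, 3 rose and 1 fell with Esrrb, the 1 becoming 2 without replicate 2 of NanogKO:Esrrb. With both factors 4 rose and 2 fell. The 4 became 2 without replicate 3 of NanogKO:Esrrb:Nanog, and the 2 became 1 without any 1 NanogKO library or without replicate 1 or 2 of NanogKO:Esrrb:Nanog.

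At other imprinted promoters the libraries of the 3 groups overlapped or lay close together. The promoter of Snrpn (chr7:60003666-60005218), which encodes a splicing protein, had 27.9, 28.8 and 26.0 CPM in NanogKO, 27.6, 24.6 and 26.8 in NanogKO:Esrrb, then 27.5, 32.7 and 23.7 in NanogKO:Esrrb:Nanog. The corresponding changes were -0.07 ± 0.12 (adjusted p = 0.69) and 0.02 ± 0.12 (adjusted p = 0.92). The start of Kcnq1ot1 (chr7:143295418-143297000), the noncoding RNA that silences the Kcnq1 domain on the paternal copy, gave -0.16 ± 0.11 in each comparison (adjusted p = 0.27 and 0.24). With library totals alone the latter passed the test at -0.26 (adjusted p = 0.038). The start of Mcts2, a retrogene inside H13, gave 0.01 and 0.25 (adjusted p = 0.98 and 0.12). Without replicate 3 of NanogKO:Esrrb:Nanog it was called higher in that group, at 0.40 against NanogKO (adjusted p = 0.0075) and 0.39 against NanogKO:Esrrb (adjusted p = 0.015). The start of Igf2, a fetal growth factor, gave -0.11 and 0.00, that of Ube3a, a ubiquitin ligase, -0.14 and 0.00, and a start of Commd1 -0.01 and 0.03. Peg10, a gene derived from a retrotransposon, had its most accessible region (chr6:4749062-4749462) at 0.07 and 0.36 (adjusted p = 0.75 and 0.056). The latter value was called without replicate 3 of NanogKO:Esrrb:Nanog, at 0.55 (adjusted p = 0.0011), without replicate 2 of NanogKO:Esrrb (0.044), with RLE size factors (0.049) and with the replicate block (0.029). Against NanogKO:Esrrb it was called without that replicate 3, at 0.48 (0.0074). A p that misses the threshold does not show that these promoters were equal.

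Zrsr1, a retrogene inside Commd1 that encodes a splicing factor, carries the mark of its pair over its own start (chr11:22971838-22973114). The region there also covers a promoter window of Commd1 on the other strand, so its values cannot be assigned to Zrsr1 alone. That region had 58.5, 41.4 and 38.4 CPM in NanogKO, 49.7, 42.9 and 40.4 in NanogKO:Esrrb, then 42.9, 30.8 and 34.3 in NanogKO:Esrrb:Nanog. The groups overlapped. Its fold change of -0.35 with both factors (adjusted p = 0.041) was lost without replicate 1 of NanogKO, at -0.15 (0.42), without replicate 2 or 3 of NanogKO:Esrrb:Nanog (0.21 and 0.076), with RLE size factors (0.051), with those groups alone (0.050) and in DESeq2 (0.064). Against NanogKO:Esrrb the difference was -0.30 (adjusted p = 0.12), called with the replicate block at -0.31 (0.015), with library totals at -0.40 (0.020) and without replicate 1 of NanogKO:Esrrb:Nanog at -0.44 (0.037).

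**Figure D2:**
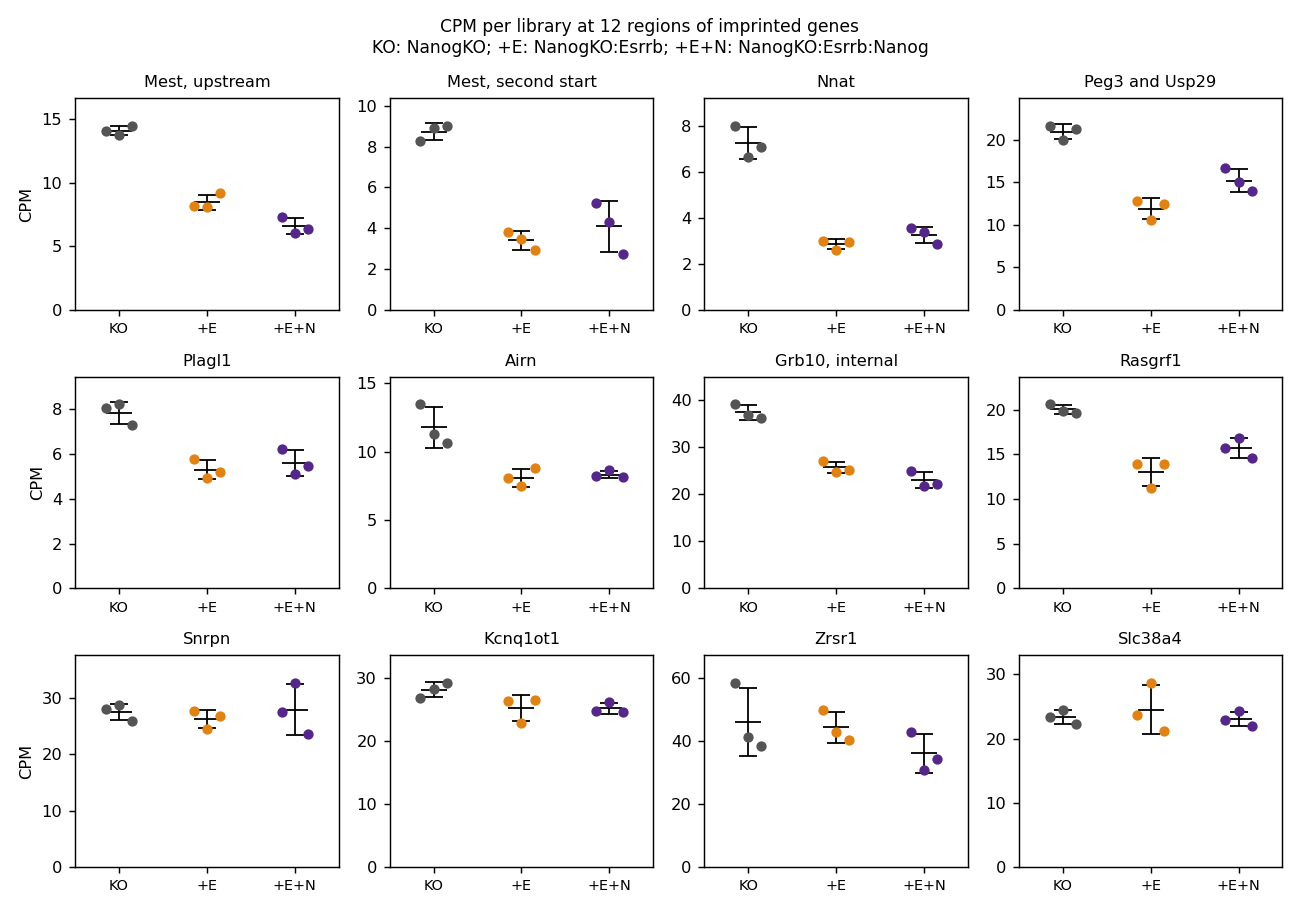
CPM in each library (points) are shown with the mean and SD of each group at 12 regions of imprinted genes, with each axis starting at 0. In the top 8 panels every NanogKO library lies above the libraries of the other groups, and in the bottom row the groups overlap or lie close together.

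The Peg3 domain, on chromosome 7 and made up here of Zim1, Peg3 and Usp29, fell on both sides of the shared promoter. Of its 30 regions, 18 fell and 1 rose in NanogKO:Esrrb, and 25 fell and 0 rose in NanogKO:Esrrb:Nanog, with median log2 fold changes of -0.61 and -0.82. Leaving out any 1 library gave 15 to 20 and 22 to 25 lower regions. The region that rose was not called without replicate 1 or 2 of NanogKO or any 1 library of NanogKO:Esrrb, and 1 rose with both factors without replicate 3 of NanogKO or replicate 2 of NanogKO:Esrrb:Nanog. The summed CPM of the domain was 254, 230 and 227 in the NanogKO libraries, 168, 145 and 164 in NanogKO:Esrrb, then 182, 143 and 153 in NanogKO:Esrrb:Nanog.

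The steepest falls lay in the intervals of Usp29 20 kb and more from the shared promoter. The region at chr7:6813442-6814001 had 3.39, 5.16 and 3.71 CPM in NanogKO, 0.815, 0.569 and 0.992 in NanogKO:Esrrb, then 0.311, 0.293 and 0.536 in NanogKO:Esrrb:Nanog. It stepped down from group to group without overlap. The log2 fold change was -2.37 ± 0.25 (adjusted p = 3.4e-08), or 5.17-fold lower, with Esrrb and -3.37 ± 0.28 (adjusted p = 1.9e-10), or 10.4-fold lower, with both factors. The difference between those groups, -1.003 (adjusted p = 0.020), was not called without replicate 1 or 3 of NanogKO:Esrrb or replicate 1 or 2 of NanogKO:Esrrb:Nanog (0.050 to 0.11). A neighbour at chr7:6777170-6777537, named after its values were seen, reached -2.52 and -2.49.

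Across Usp29, 11 of 23 regions fell and 1 rose with Esrrb, and 19 fell and 0 rose with both factors, 7 of them lower also against NanogKO:Esrrb. Against NanogKO:Esrrb, 3 Usp29 regions were lower without replicate 3 of that group or replicate 2 of NanogKO:Esrrb:Nanog, and 4 without replicate 1 of the latter. Zim1, a zinc finger gene expressed from the maternal copy, fell in 4 of 4 regions with Esrrb, or 2 without replicate 1 of NanogKO:Esrrb, and in 3 of 4 with both factors. At its promoter (chr7:6696081-6696861) the libraries had 24.1, 23.2 and 23.6 CPM in NanogKO, 17.5, 17.7 and 20.01 in NanogKO:Esrrb, then 21.8, 21.0 and 18.7 in NanogKO:Esrrb:Nanog. The comparison with Esrrb passed there, at -0.36 (adjusted p = 0.012), but not without replicate 1 or 2 of NanogKO:Esrrb (0.063 and 0.051). With both factors it was -0.21 (adjusted p = 0.13), called with library totals alone at -0.31 (0.015).

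Beyond these genes, of 100 non-member regions within 1 Mb, 24 fell and 12 rose in NanogKO:Esrrb, and 34 fell and 13 rose in NanogKO:Esrrb:Nanog, with medians of -0.11 and -0.24. Over the whole of chromosome 7 the medians were -0.04 and -0.02. In the deposited peak lists, 11 of the 30 regions held a peak of NanogKO but not of NanogKO:Esrrb, and 3 the reverse. The shares of such regions in the whole table were not counted.

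**Figure D3:**
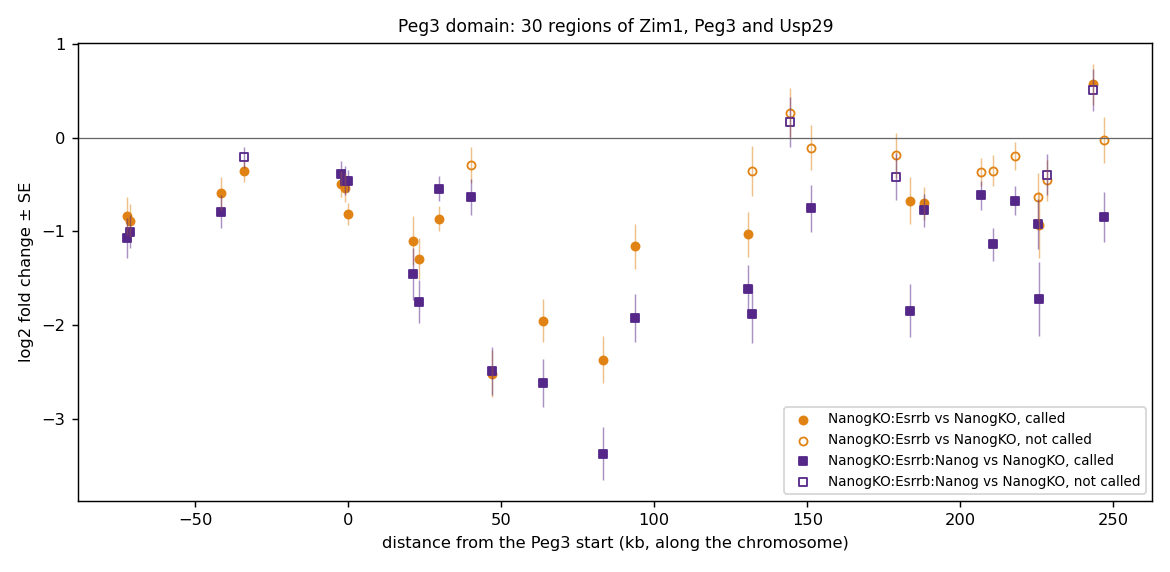
The log2 fold change with its SE at each of the 30 regions of Zim1, Peg3 and Usp29 is plotted against distance in kb from the start of Peg3, for both comparisons with NanogKO, with filled symbols for called regions. The values are mostly under 0 on both sides of the promoter and lowest inside Usp29.

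Trappc9 encodes a subunit of a vesicle tethering complex and holds the noncoding Peg13 in an intron. Of its 27 regions, 11 fell and 0 rose with Esrrb, and 13 fell and 2 rose with both factors, the 11 being among the 13. The former count was 6 without replicate 1 of NanogKO:Esrrb, and the 2 that rose became 1 without replicate 1 of NanogKO. The region with the smallest p (chr15:72864024-72864943) had 5.49, 5.01 and 5.27 CPM in NanogKO, 2.23, 2.06 and 1.91 in NanogKO:Esrrb, then 1.37, 1.44 and 1.28 in NanogKO:Esrrb:Nanog, with no overlap between groups, or -1.35 ± 0.17 and -1.95 ± 0.18 against NanogKO.

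The Trappc9 promoter (chr15:73060321-73061391), its most accessible region, had 42.2 ± 2.4, 42.8 ± 2.7 and 49.7 ± 5.8 CPM and was called in neither. Without replicate 3 of NanogKO:Esrrb:Nanog it was called higher with both factors, at 0.33 (adjusted p = 0.013) against NanogKO and 0.31 (0.030) against NanogKO:Esrrb. The 4 regions of Kcnk9, a potassium channel gene in the same domain, were called in none of the 3 comparisons, with log2 fold changes against NanogKO from -0.30 to 0.30. At chr15:72516890-72517310 the change of -0.30 with Esrrb (adjusted p = 0.061) was called with the replicate block (0.041), with those groups alone (0.034) and without replicate 1 or 3 of NanogKO:Esrrb:Nanog (0.048 and 0.039). Between the groups with Esrrb that region was called without the same replicate 3, at 0.35 (0.041). A second Kcnk9 region was called lower with both factors under library totals, at -0.25 (0.041). Of 151 non-member regions within 1 Mb, 37 rose and 24 fell with Esrrb, and 47 rose and 30 fell with both factors. Among these were 21 regions of the imprinted gene Ago2, of which 11 rose and 0 fell, then 13 rose and 1 fell.

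The Snrpn domain holds Snrpn, Ube3a, Ndn, Magel2 and Mkrn3 and is known from the Prader-Willi and Angelman syndromes. Of its 15 regions, 4 fell and 1 rose with Esrrb, and 9 fell and 1 rose with both factors. The rise with Esrrb was not called without replicate 2 of NanogKO or replicate 1 of NanogKO:Esrrb. The promoters of Ndn, which encodes necdin, and of Magel2, a ubiquitin ligase adaptor of the MAGE family, dropped while those of Snrpn and Ube3a were not called. The Ndn promoter (chr7:62348136-62349317) had 23.0, 21.6 and 24.6 CPM in NanogKO, 17.2, 15.3 and 19.3 in NanogKO:Esrrb, then 17.2, 17.9 and 18.9 in NanogKO:Esrrb:Nanog. On the log2 scale it fell by 0.42 (adjusted p = 0.0055) and by 0.36 (adjusted p = 0.013), the latter lost without replicate 3 of NanogKO (0.064).

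The Magel2 promoter (chr7:62376703-62377641) gave -0.45 (adjusted p = 0.0026) and -0.33 (adjusted p = 0.019), the latter lost without replicate 1 of NanogKO (0.062) or replicate 1 of NanogKO:Esrrb:Nanog (0.060). Mkrn3, a ring finger gene, fell at its promoter (chr7:62418837-62420319) with both factors, at -0.33 (adjusted p = 0.021). That call was lost without replicate 2 or 3 of NanogKO (0.051 and 0.059) or replicate 2 of NanogKO:Esrrb:Nanog (0.12). Regions between and around these genes fell as well. Of 53 non-member regions in the domain or within 1 Mb of it, 29 fell and 1 rose with Esrrb. With both factors 40 fell and 2 rose, and the medians were -0.54 and -0.98 in turn. These 53 take in the imprinted genes Atp10a and Peg12. At Atp10a 6 and then 7 of 7 regions fell. At Peg12 2 of 3 fell with Esrrb, and 1 fell and 1 rose with both factors.

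Slc38a4, an amino acid transporter gene expressed from the paternal copy, went against this direction. Of its 15 regions, 11 rose and 1 fell with Esrrb, and 11 rose and 2 fell with both factors, with median log2 fold changes of 0.88 and 1.44. With any 1 library left out, 9 to 12 and 9 to 11 rose. The strongest, inside Slc38a4 (chr15:97037763-97038171), had 0.854, 1.16 and 1.99 CPM in NanogKO, 6.44, 10.2 and 5.58 in NanogKO:Esrrb, then 11.1, 12.8 and 9.20 in NanogKO:Esrrb:Nanog. The NanogKO libraries lay far below the others.

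That region rose on the log2 scale by 2.46 ± 0.24 (adjusted p = 6.7e-09) and 3.03 ± 0.24 (adjusted p = 6.1e-11), or 5.51-fold and 8.16-fold. The promoter (chr15:97054886-97056133) was called in no comparison, with 23.4 ± 1.1 CPM (SD, n = 3) in NanogKO, 24.5 ± 3.9 in NanogKO:Esrrb and 23.1 ± 1.1 in NanogKO:Esrrb:Nanog. About 5 kb upstream, the region at chr15:97061043-97061284, named after its values were seen, dropped from 5.34 ± 0.39 CPM to 1.36 ± 0.32 and 1.34 ± 0.17, or by 1.97 and 1.98 on the log2 scale. Of 308 other regions within 1 Mb, 73 rose and 53 fell with Esrrb, and 79 rose and 78 fell with both factors.

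The Peg10 domain on chromosome 6 had the most regions, 79, at Sgce, Peg10, Ppp1r9a and Asb4. With Esrrb, 27 rose (34.2%) and 9 fell (11.4%), beside 20% and 17.0% of all regions, and 5 fell without replicate 2 of NanogKO. With both factors the balance was 20 higher and 19 lower, and 21 regions were lower and 2 higher in NanogKO:Esrrb:Nanog than in NanogKO:Esrrb. Against the last of these stand 12.6% higher and 12.0% lower of all regions. Leaving out any 1 library gave 14 to 24 lower there, and without replicate 3 of NanogKO:Esrrb:Nanog 5 were higher. Ppp1r9a, which encodes the actin-binding protein neurabin and is expressed from the maternal copy in some tissues, accounted for most.

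Of the 52 regions of Ppp1r9a, 22 rose and 5 fell with Esrrb, and 16 rose and 10 fell with both factors. The 5 became 3 without replicate 2 of NanogKO. Between the last 2 groups 17 were lower and 0 higher, and 8 of those 17 were among the 22 that rose with Esrrb. Without replicate 2 of NanogKO:Esrrb 1 was higher there, and without replicate 3 of NanogKO:Esrrb:Nanog 2. Its most accessible region (chr6:5119032-5119906) had 19.8, 20.2 and 17.5 CPM in NanogKO, 27.9, 37.5 and 28.5 in NanogKO:Esrrb, then 25.8, 25.6 and 32.8 in NanogKO:Esrrb:Nanog, which was 0.71 ± 0.13 and 0.55 ± 0.13 on the log2 scale. In contrast, the region with the smallest p (chr6:4937692-4938137) had 6.05, 8.63 and 6.57 CPM, then 2.27, 3.40 and 1.95, then 1.33, 1.11 and 1.12. It fell by 1.48 with Esrrb, by 2.57 with both factors and by 1.09 between those groups (adjusted p = 1.2e-06, 2.0e-10 and 0.00092).

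Sgce, which encodes epsilon-sarcoglycan and shares its promoter area with Peg10, held the largest rise in the set with both factors. A small region (chr6:4677652-4677850) had 0.220, 0.533 and 0.466 CPM in NanogKO, 1.01, 1.27 and 1.11 in NanogKO:Esrrb, then 3.52, 3.90 and 3.13 in NanogKO:Esrrb:Nanog. The log2 fold change was 1.44 ± 0.28 and 3.07 ± 0.27 against NanogKO (adjusted p = 0.00018 and 3.6e-10). Of 8 Sgce regions 1 rose and 3 fell with Esrrb, and 1 rose and 4 fell with both factors. The 3 became 1 without replicate 1 or 2 of NanogKO or replicate 1 of NanogKO:Esrrb, and the 4 became 2 without replicate 1 of NanogKO. Asb4, a substrate adaptor gene of the SOCS box family, had 2 higher and 1 lower of 14, then 2 and 4. Without replicate 1 or 2 of NanogKO its 2 with Esrrb became 1 and its 4 became 2, as they did without replicate 1 or 2 of NanogKO:Esrrb and replicate 1 of NanogKO:Esrrb:Nanog, respectively. The 5 regions of Peg10 had 2 and 0, then 1 and 1, with 2 higher in the latter without replicate 2 of NanogKO:Esrrb or replicate 2 or 3 of NanogKO:Esrrb:Nanog.

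**Figure D4:**
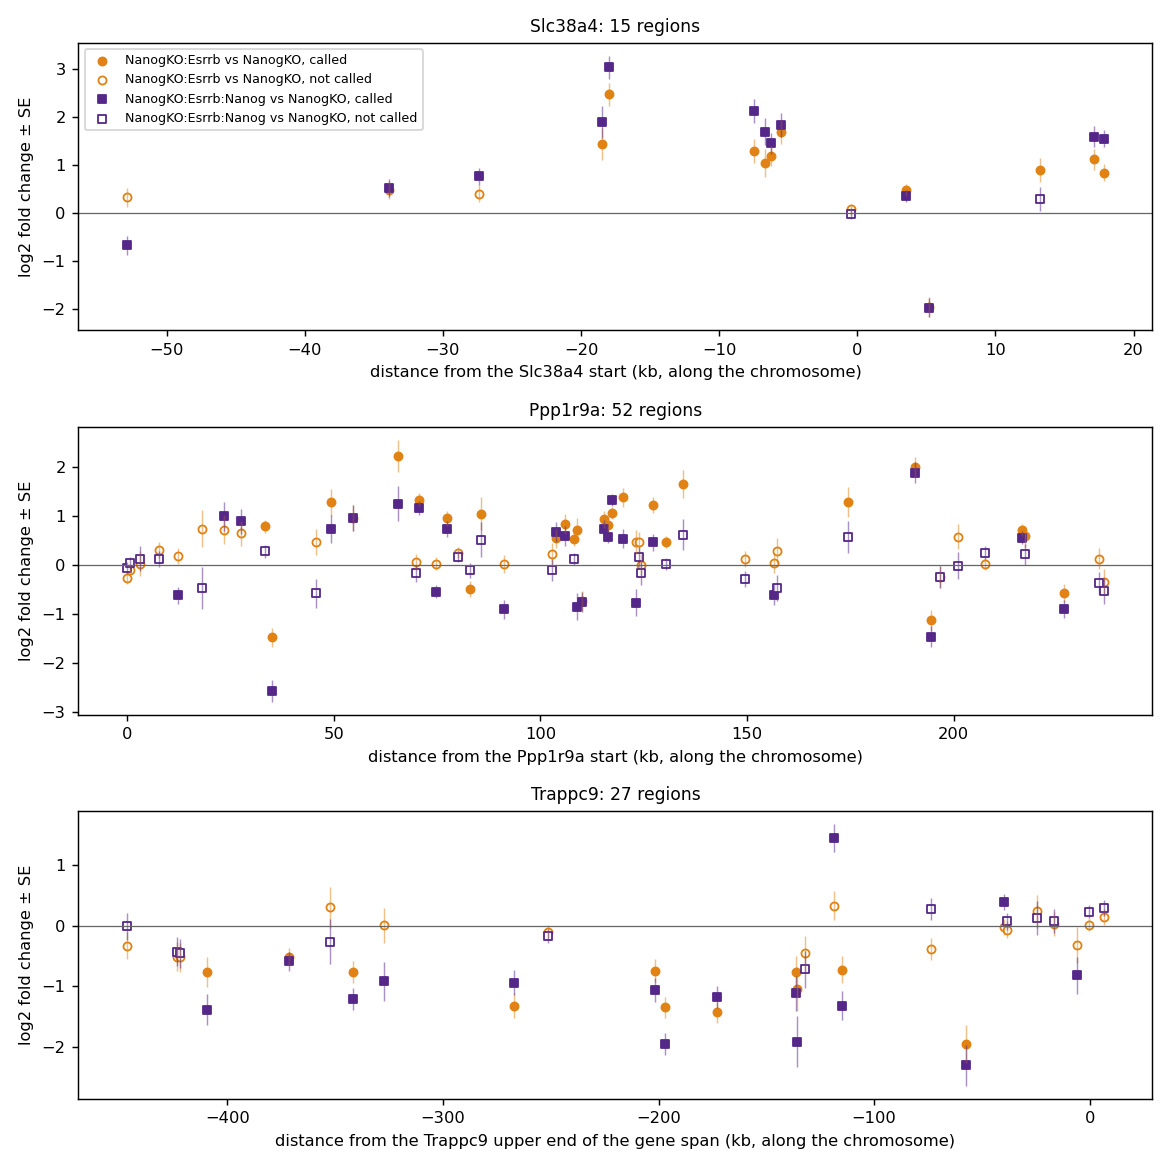
The log2 fold change with its SE is plotted along Slc38a4 (15 regions), Ppp1r9a (52 regions) and Trappc9 (27 regions), with distance in kb from a gene end on the x axis and filled symbols for called regions. Slc38a4 values lie mostly above 0, those of Ppp1r9a on both sides, and those of Trappc9 mostly under 0.

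Some imprinted regions were called higher in both comparisons of NanogKO:Esrrb:Nanog and were not called between NanogKO:Esrrb and NanogKO. At H13, which encodes an intramembrane protease, a region next to the promoter (chr2:152671549-152671938) had 5.88, 6.28 and 6.43 CPM in NanogKO, 7.49, 6.87 and 6.84 in NanogKO:Esrrb, then 21.2, 20.6 and 20.7 in NanogKO:Esrrb:Nanog. The last group stood well above the others. On the log2 scale the change was 0.19 ± 0.12 with Esrrb (adjusted p = 0.24), 1.75 ± 0.12 with both factors (adjusted p = 8.1e-12), and 1.56 ± 0.12 between those groups (adjusted p = 2.6e-09), or 2.95-fold. At Slc22a18, a transporter gene of the Kcnq1 domain, the region at chr7:143498658-143498901 rose by 0.99 between NanogKO:Esrrb and NanogKO:Esrrb:Nanog (adjusted p = 6.7e-05), from 3.66 ± 0.01 to 7.27 ± 0.45 CPM, and was at 0.33 with Esrrb (adjusted p = 0.12). In contrast, at Commd1, whose protein acts in copper handling, the region at chr11:22949154-22949545 was called higher at each step, from 3.78 ± 0.57 to 6.62 ± 0.54 and 10.6 ± 0.8 CPM, at 0.80 with Esrrb (adjusted p = 0.00010) and 0.68 between the last 2 groups (adjusted p = 0.0012).

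Over all members, 14 regions (4.23%) had the pattern of the H13 and Slc22a18 regions, beside 4.99% of all regions, and 17 (5.14%) had the same pattern downward, beside 5.26%. Another 8 (2.42%) rose and 8 fell at each step, beside 4.01% and 2.56%. With Esrrb and with both factors but not between them, 57 (17.2%) were lower and 33 (9.97%) higher, beside 10.2% and 10.8%. The counts that need a call between the last 2 groups moved with single libraries. Without replicate 3 of NanogKO:Esrrb the 14, the 17 and the 8 that rose became 9, 10 and 4, and without replicate 3 of NanogKO:Esrrb:Nanog 24, 20 and 10. The 8 that fell became 1 without replicate 1 of NanogKO:Esrrb and 15 without replicate 3 of NanogKO:Esrrb:Nanog. With any 1 library left out, the 57 stayed within 46 to 63 and the 33 within 26 to 38. The promoters of Inpp5f, an inositol phosphatase gene, and of Ascl2, a trophoblast factor gene, were among the 14. The Inpp5f promoter (chr7:128610754-128611989) had 48.2, 46.9 and 29.3 CPM in NanogKO:Esrrb:Nanog against 27.3 to 31.2 in NanogKO, with replicate 3 in the range of NanogKO. Its difference from NanogKO:Esrrb, 0.41 (adjusted p = 0.039), was lost without replicate 2 or 3 of NanogKO or of NanogKO:Esrrb, or replicate 1 or 2 of NanogKO:Esrrb:Nanog (0.050 to 0.19), with library totals (0.087) and with those groups alone (0.074). The Ascl2 promoter (chr7:142968913-142969511) had 16.2, 17.7 and 15.2 CPM against 10.99 to 13.3 in the other 6 libraries, for 0.50 against NanogKO (adjusted p = 0.0012) and 0.42 against NanogKO:Esrrb (adjusted p = 0.013). The latter was lost without replicate 2 of either of these groups (0.071 and 0.063) and with library totals (0.050).

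The Kcnq1 domain, whose genes include the potassium channel Kcnq1 and the maternally expressed growth inhibitors Cdkn1c and Phlda2, had 6 higher (13.6%) and 4 lower (9.09%) of its 44 regions with Esrrb, beside 20% and 17.0% of all regions. The 4 became 2 without replicate 1 or 2 of NanogKO or replicate 2 of NanogKO:Esrrb, and 7 without replicate 3 of NanogKO:Esrrb:Nanog. With both factors 9 rose (20.5%) and 10 fell (22.7%), beside 24.9% and 24.4%, and 6 fell without replicate 2 of NanogKO:Esrrb:Nanog. Within Kcnq1, the region at chr7:143119630-143120666 rose from 9.32, 8.71 and 10.3 CPM to 22.9, 28.2 and 21.0 and to 26.2, 24.6 and 28.9, or by 1.35 ± 0.13 and 1.49 ± 0.13 on the log2 scale (adjusted p = 4.9e-09 and 2.9e-10). The groups with Esrrb overlapped each other and not NanogKO. At Cdkn1c, 6 of 7 regions were called in no comparison, though without replicate 3 of NanogKO:Esrrb:Nanog 1 region was called higher with both factors. The exception (chr7:143466240-143466748), over Gm33663, was at -0.35 and -0.41 (adjusted p = 0.043 and 0.014). The former was not called without replicate 1 or 2 of NanogKO or any 1 library of NanogKO:Esrrb (0.052 to 0.18), and the latter without replicate 1 of NanogKO or replicate 2 of NanogKO:Esrrb:Nanog (0.074 and 0.084). Phlda2 was called at its promoter (chr7:143501733-143503232) between the last 2 groups, by 0.36 (adjusted p = 0.026), which did not hold without replicate 2 or 3 of NanogKO:Esrrb or replicate 1 or 2 of NanogKO:Esrrb:Nanog (0.074 to 0.10), with library totals (0.067) or with those groups alone (0.056). Against NanogKO it was 0.19 (adjusted p = 0.18), called without replicate 3 of NanogKO:Esrrb:Nanog at 0.30 (0.026).

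The remaining domains had mixed or few changes, given as higher and lower with Esrrb and then with both factors, beside 20% and 17.0%, then 24.9% and 24.4%, of all regions. Gnas, which encodes a G protein alpha subunit, had 3 and 3, then 5 and 4, of 19 regions. Its 3 lower regions became 0 without replicate 3 of NanogKO:Esrrb, and its 5 became 3 without replicate 1 of NanogKO:Esrrb:Nanog. H13 had 4 and 1, then 5 and 1, of 16, and the 4 became 2 without replicate 2 or 3 of NanogKO or replicate 1 or 2 of NanogKO:Esrrb. Without replicate 1 of NanogKO:Esrrb:Nanog, 2 H13 regions fell with both factors. Igf2r had 3 and 4 in each comparison of its 13, with 1 higher with both factors without replicate 2 of NanogKO. Zrsr1 with Commd1 had 3 and 1, then 5 and 3, of 13. Its 5 became 3 without replicate 1 of NanogKO, and its 1 became 2 without replicate 2 of NanogKO:Esrrb or replicate 3 of NanogKO:Esrrb:Nanog. Inpp5f had 1 and 4 in each of its 11 regions. Its 4 with Esrrb became 2 without replicate 2 of NanogKO or replicate 1 of NanogKO:Esrrb, and 2 rose with both factors without replicate 1 of NanogKO. Impact, a regulator of translation with 7 regions, and Igf2, with 5, had at most 2 calls in either direction in these comparisons, and single libraries left out changed those counts. A small Igf2 region (chr7:142659190-142659360) had 6.18, 5.96 and 3.35 CPM in NanogKO:Esrrb:Nanog, of which the third lay close to the 2.51 to 3.42 of the other groups.

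At imprinted genes outside the 33, and at genes that keep imprints, more regions rose than fell. As ties were kept, the former list shares regions with the members. Among these are the Nnat region, also counted for Blcap, and the start of Mcts2 inside H13. Of 256 regions at other imprinted genes, 60 rose and 37 fell with Esrrb, and 76 rose and 54 fell with both factors, with medians of 0.06 and 0.12 on the log2 scale. Of 152 regions at genes that keep imprints, such as Zfp57, Trim28 and Dnmt1, 35 rose and 15 fell, then 41 rose and 29 fell. Both are to be read against the 20% and 17.0%, then 24.9% and 24.4%, of all regions, and neither list was tested as a whole.

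Of the 3 peak lists the authors deposited, those of NanogKO and NanogKO:Esrrb were used. A NanogKO peak and a NanogKO:Esrrb peak were both present in 212 of the 331 regions, a NanogKO peak alone in 50, a NanogKO:Esrrb peak alone in 59, and neither in 10. At Slc38a4, 1 region had a peak in NanogKO alone and 5 in NanogKO:Esrrb alone, and at Trappc9 with Kcnk9 the numbers were 8 and 5. These lists were called per group, so they carry no spread between replicates. The shares over all regions were not counted, so whether such splits are usual in the table is not known.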

How the data were processed

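The deposited table gives the authors' raw counts of reads per region in each of the 9 libraries. Its regions are the merger of the authors' 3 peak lists, whose peaks carry the peak caller's own score, used only to say where a list has a peak. The submitters' processing notes name the build mm10 and, without roles, Bowtie2, cutadapt, MACS2 2.2.0, SAMtools 1.4.1, bedtools 2.26.0, bcl2fastq 2.19.1 and deepTools 4.4.0. A shift of reads for the transposase and removal of duplicates are not given in the sources used here. Regions had a median length of 345 bases. The list labelled for the third group carries the peak names of 1 library and was not used as that group's list.

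Counts were tested with edgeR 4.0.16 (R 4.3.3) by its quasi-likelihood test, with TMM factors, filterByExpr and group means over all 9 libraries (6 residual degrees of freedom, 157439 regions). Calls used a Benjamini-Hochberg adjusted p under 0.05 over all regions. CPM used TMM-scaled library sizes. The scripts were tested on simulated data. No pair of libraries of a group agreed within sampling noise.

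Members, gene lists and tests were chosen with earlier results of these data known. Gene spans, promoter windows and sequences came from RefSeq (GRCm38.p6). For each member gene the most accessible region, the region with the smallest p among the 3 groups, and regions over its promoter or over an imprinted noncoding start could be named. These make up the named regions counted below. Not all of them are printed above, and those of Gnas, Impact and Asb4 are given without positions or not at all. The lists cover parental origin, other imprinted genes (Zfp264 and H19 had no matching row), keepers of imprints and cell type markers.

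Same-numbered libraries of NanogKO:Esrrb and NanogKO deviated from their group means together, as did those of NanogKO:Esrrb:Nanog and NanogKO:Esrrb. Their correlations were 0.117 to 0.152 and 0.105 to 0.146, against -0.0946 to -0.0476 and -0.0976 to -0.0320 for libraries with different numbers. For NanogKO:Esrrb:Nanog and NanogKO the ranges overlapped (0.00220 to 0.136, against -0.0906 to 0.0445). The main fit took no account of replicate numbers. Alternatives were RLE size factors, library totals, DESeq2 1.42.0, no filter, the compared groups alone, a replicate block, each library left out, member genes without the 20 kb margin, and a 2-fold threshold.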

Additional observations from a re-analysis of the deposited data

How the results depend on the processing

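Requiring more than a 2-fold change left 29 higher and 28 lower member regions with Esrrb, 28 and 43 with both factors against NanogKO, and 3 and 10 between NanogKO:Esrrb:Nanog and NanogKO:Esrrb. Library totals without TMM gave 17 higher in the last comparison and moved the median of all regions to -0.10 for NanogKO:Esrrb:Nanog against NanogKO and -0.11 against NanogKO:Esrrb. Under totals and RLE factors no called member changed direction. Leaving out 1 library at a time gave 53 to 66 higher and 59 to 88 lower with Esrrb, 57 to 74 and 94 to 112 with both factors, and 16 to 50 and 27 to 60 between the last 2 groups. With the replicate block the counts were 69 and 86, 76 and 116, and 38 and 51, and among the named regions it ended 0 calls and added 9. DESeq2, RLE factors, no filter, the compared groups alone and member genes without the margin stayed within 1.5 times. Over 70 named regions, 3150 alternative values left 3001 on the same side of the threshold, 99 lost and 50 gained a call, and 0 called values changed sign. Leaving out replicate 3 of NanogKO:Esrrb:Nanog alone gave 22 of the 50 gained calls and 4 of the 99 lost. With 3 libraries a group, changes much under 2-fold can be missed, so regions not called are not shown to be unchanged.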
